A study of Gallus gallus with 12 samples.

Results

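Gene expression of gonadal PGCs (gPGCs) was compared between female (ZW) and male (ZZ) chicken embryos at E6.5 for the genes that do not lie on the W chromosome. A gene was included when it had at least 1 TPM in at least 2 of the 4 E6.5 libraries. TPM counts a gene's reads per unit of its length and makes every library add up to 1000000. This gave 12001 of the 24356 genes in the deposited table, of which 592 lay on the Z chromosome and 11409 elsewhere. The threshold fell in a well-filled range, with 191 genes whose second highest TPM was between 1.0 and 1.1 inside it and 224 between 0.9 and 1.0 outside it. The 4 libraries were 2 male and 2 female pools, each of cells sorted by FACS with an antibody against SSEA-1 from gonads of 6 to 14 white Leghorn embryos of one PCR-determined sex. No group carried a transgene or received a treatment. Dead cells were left out of the sort, and libraries were made with the SMART-seq v4 and Nextera XT kits, which do not mark strand. The same study also sequenced PGCs of E2.5 blood and E4.5 gonads, giving 12 libraries in all.

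PGCs are the precursors of sperm and eggs, and in birds they reach the gonad through the bloodstream. In the chicken, males carry a pair of Z chromosomes and females a single Z and a W, and birds do not inactivate a whole Z chromosome in males, so that Z-linked genes are known to be higher in males as a rule. At this stage the gonad lies against the mesonephros, the embryonic kidney, and its supporting cells are starting to take a male or female course.

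Between 10670757 and 13671015 reads were recovered on genes in the 4 libraries. On a gene of 1000 bases, 3 reads came to between 0.386 and 0.47 TPM, and this floor covers counting error only. The cells expressed the germ cell markers *DAZL* and *DDX4* in every pool. *DAZL*, which encodes an RNA-binding protein of germ cells, had 2123 and 2507 TPM in the male pools and 2229 and 1747 TPM in the female pools. Of 19 germ cell markers the table names 18, and 0 of these 18 passed the test between the sexes (median log2 fold change -0.25). As 1.18% of all genes tested were called female-higher and 0.808% male-higher, 0 of 18 says little about these markers. Their summed level was 4062 and 5057 TPM in males and 4373 and 3209 TPM in females, so that the second female pool was the lowest. *DAZL* alone made up a large part of each sum. *DDX4*, the chicken vasa homologue that marks germ cells, had 339 and 405 TPM in the male pools and 302 and 135 TPM in the female pools, a log2 fold change of -0.87 between females and males (standard error, SE, 0.35, and adjusted p = 0.298 from limma). The second female pool was the low one here, and against the male pools it was at -1.45 on its own (adjusted p = 0.0261), while the first was at -0.29 (adjusted p = 0.778). W-linked genes, summed, came to 25.3 and 23.4 TPM in the male pools and to 2704 and 2924 TPM in the female pools, which fits the labelled sexes. In bulk samples such as these, fewer cells of a type and less RNA per cell cannot be told apart.

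The sexes differed in both directions, and the differences were of unlike size and place. Female-higher genes lay mostly outside Z, changed by large folds and included many enzymes and membrane transporters of kidney and liver that were nearly silent in the male pools. Male-higher genes were mostly Z-linked and changed by smaller folds. With limma on log2(TPM + 1), 142 genes (1.18% of those tested) were higher in females and 97 (0.808%) were higher in males at a Benjamini-Hochberg adjusted p under 0.05. Of the female-higher genes 6 lay on Z and 136 elsewhere, and of the male-higher genes 68 lay on Z and 29 elsewhere. When a log2 fold change of 3 was required as well, which is the threshold of the study's methods, 118 genes (0.983%) remained in females and 4 (0.0333%) in males. Fold changes are female minus male on the log2(TPM + 1) scale throughout, which makes changes of low genes smaller. The median over all genes tested was -0.08. Of the called genes, 35 female-higher (24.6%) and 29 male-higher ones (29.9%) had no gene name, against 21.7% of all genes tested. Long non-coding RNAs were 7 (4.93%) and 6 (6.19%) of them, against 7.16% of all genes tested.

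The median log2 fold change was 4.03 in the 142 female-higher genes (range 1.42 to 7.36) and -1.64 in the 97 male-higher genes (range -3.94 to -0.88). In 38 of the female-higher genes no male pool had more than 3 reads, and with these set at the fold that 3 reads per library would give, the median was 4.55. For the male-higher genes this median was -1.50, with 11 genes set in that way. In all of the called genes the sexes did not overlap. Of all 12001 genes, 284 reached 1 TPM in the female pools alone and 257 in the male pools alone. Such genes had to differ to be tested, so that their p-values, here and below, are a description. Without any test, both female pools were above both male pools in 2165 genes (18.0%), and both male pools were above both female pools in 3389 (28.2%). With 2 pools per sex, pools in random order would also separate in many genes, so that these shares are no count of sex differences. The first female pool was below both male pools in 4273 genes and above both in 4449. The second was below both in 6018 and above both in 3025.

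These counts rest on 2 pools per sex. For 1 gene, 2 pools against 2 allow no smaller p than 0.333 in a two-sided exact permutation test, and the limma p-values measure the spread between these pools only. Of the called genes, 59.4% were female-higher. With median-of-ratios scaling the calls were 43 female-higher and 17 male-higher, or 71.7% female-higher, and with the replicate number as a block they were 226 and 77, or 74.6%. With no filter on low values and with limma-voom on reads recovered from TPM, 0 genes were female-higher and 1 was male-higher, with 853 and 682 female-higher and 1050 and 986 male-higher genes at an unadjusted p under 0.05. With the filter and limma on log2(TPM + 1), there were 810 female-higher and 925 male-higher genes at that p. Without the first male pool and without the second male pool, 0 genes were called in either direction (smallest adjusted p = 0.203 and 0.215), with 425 and 570 female-higher genes and 415 and 746 male-higher genes at an unadjusted p under 0.05. Without the first female pool 442 genes were female-higher and 97 male-higher, and without the second 105 and 16.

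**Figure D1:**
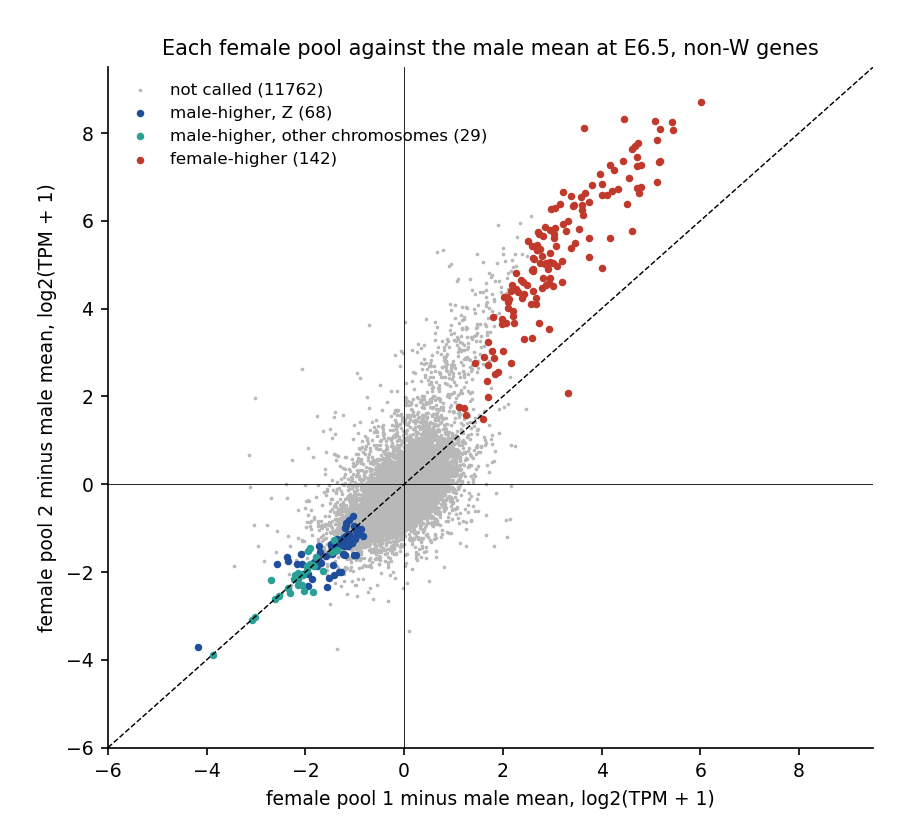
Difference of each female pool from the mean of the male pools in log2(TPM + 1), pool 1 on the x axis and pool 2 on the y axis, for the 12001 non-W genes tested; each point is a gene, colours mark the genes called by limma and the dashed line marks equal differences. Female-higher genes lie above the line in 140 of 142 cases, whereas male-higher genes lie near it. Small changes are called more readily where the pools agree, which sets part of this contrast.

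The female pools were far apart in the female-higher genes and close together in the male-higher genes. The test sets part of this contrast, since with 2 pools per sex a small change passes more readily where the pools agree. In the 142 female-higher genes, the TPM of the second pool was 4.89 times that of the first at the median (quartiles 3.44 and 6.85), and the second pool was the higher of the pair in 140. In the 118 genes past the fold threshold it was 5.55 times at the median, with a range of 1.59 to 22.8, and the second pool was above the first in all 118. In the 24 female-higher genes short of that threshold it was 2.10 times at the median. In the 87 male-higher genes in which the ratio could be formed, its median was 0.965, and over all genes tested it was 0.882. Between the male pools, the median ratio of the second to the first was 0.747 in the female-higher genes and 0.976 over all genes. The 118 genes together made up 0.0394% and 0.0353% of TPM in the male pools, 0.601% in the first female pool and 3.63% in the second.

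Each female pool was also tested on its own against both male pools, with the lone female library assumed to vary like the male ones. In the first female pool 105 genes (0.875%) were female-higher and 16 (0.133%) male-higher, and in the second 442 (3.68%) and 97 (0.808%). With the fold threshold, 62 genes (0.517%) were female-higher in the first pool and 262 (2.18%) in the second, and 5 and 6 were male-higher. By fold alone, 66 genes were at 3 or more above the male mean in the first pool and 271 in the second, against 9 and 6 that were as far below it. The median difference from the male mean was 0.02 over all genes in the first pool and -0.18 in the second. Both tests share the male libraries, so that the lists are not independent of each other.

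The largest female-higher change was that of *CYP2AC1* (ENSGALG00000016690, chromosome 3, 108774929 to 108782996), a cytochrome P450 gene with close relatives, whose shared reads were not counted. It had 5.07 and 4.29 TPM in the male pools and 366 and 2361 TPM in the female pools, a log2 fold change of 7.36 (SE 0.69, adjusted p = 0.00212). Both female pools were far above both male pools, and the second was far above the first. *APOA1* (ENSGALG00000007114, chromosome 24, 5140181 to 5141930), which encodes the main protein of high-density lipoprotein, had 12.6 and 7.9 TPM in the male pools and 398 and 3022 TPM in the female pools, a log2 fold change of 6.64 (SE 0.76, adjusted p = 0.00592). Its neighbour *APOC3*, another apolipoprotein gene, had 4.99 and 4.42 TPM in the male pools and 205 and 930.0 TPM in the female pools, with a log2 fold change of 6.26 (SE 0.58, adjusted p = 0.00207). The neighbours thus shared the same order of pools. *MIOX* (ENSGALG00000041965, chromosome 1, 1281583 to 1284116), the enzyme that opens the ring of myo-inositol in the kidney, had 1.28 and 0.753 TPM in the male pools and 84.8 and 605 TPM in the female pools, a log2 fold change of 6.83 (SE 0.75, adjusted p = 0.00445). *TTR*, which encodes the thyroid hormone carrier transthyretin, had 1.06 and 1.05 TPM in the male pools and 43.8 and 660.3 TPM in the female pools, the widest gap between the female pools among these genes apart from *TINAG*. *TINAG*, named for a basement membrane antigen of kidney tubules, had 1.36 and 0.6396 TPM in the male pools and 23.8 and 543 TPM in the female pools, a log2 fold change of 5.88 (SE 1.13, adjusted p = 0.038). The female-higher gene of highest level was *RGN* (ENSGALG00000016724, chromosome 1, 131416725 to 131429820), which encodes a calcium-binding protein with a part in vitamin C synthesis in many animals. It had 45.9 and 52.5 TPM in the male pools and 1181 and 6262 TPM in the female pools, a log2 fold change of 5.76 (SE 0.62, adjusted p = 0.00396).

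**Figure D2:**
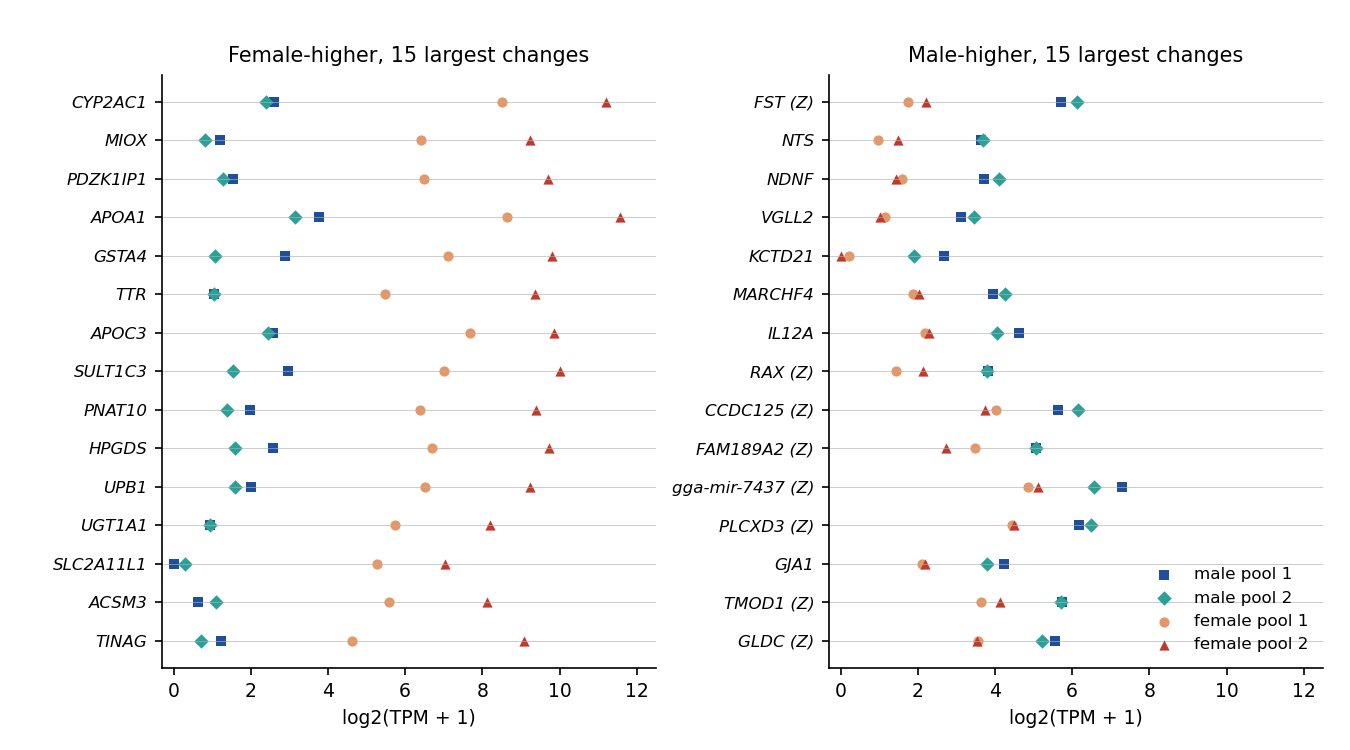
Level of the 15 named genes with the largest female-higher changes (left) and male-higher changes (right), as log2(TPM + 1) on the x axis in each of the 4 E6.5 pools; (Z) marks Z-linked genes. Only genes without overlap between the sexes were picked, which sets the order of the sexes in both panels. In the left panel the second female pool is above the first in every gene.

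Other genes among the 15 largest female-higher changes had the same order of pools. *GSTA4*, a glutathione transferase, had 6.33 and 1.096 TPM in the male pools and 136 and 894 TPM in the female pools, and the adjacent *GSTA3* had 16.3 and 2.33 TPM in the male pools and 151 and 806 TPM in the female pools. These are close paralogs counted from uniquely mapped reads, so that the split between them is uncertain. *SULT1C3*, a sulfotransferase, had 6.87 and 1.88 TPM in the male pools and 127 and 1036 TPM in the female pools. *UGT1A1*, which attaches glucuronic acid to bilirubin and other compounds, had 0.911 and 0.9097 TPM in the male pools and 51.9 and 292 TPM in the female pools, a log2 fold change of 6.03 (SE 0.67, adjusted p = 0.00492). It reached 1 TPM in the female pools alone, so that its p-value is a description. *HPGDS*, a prostaglandin D synthase, had 4.97 and 2.004 TPM in the male pools and 104 and 840.2 TPM in the female pools, and *UPB1*, an enzyme of pyrimidine breakdown, had 2.99 and 1.99 TPM in the male pools and 89.8 and 602 TPM in the female pools. Only genes without overlap between the sexes could be among the 15. Within the females, the second pool was the higher in each of these genes. *SLC2A11L1*, a member of the sugar transporter family, had 0 and 3 reads in the male pools and 37.7 and 129.8 TPM in the female pools. From reads summed per sex it was 671-fold higher in females, with an exact 95% interval of 229 to 3255 that covers counting error only. The log2 fold changes of *PDZK1IP1*, *PNAT10* and *ACSM3* were 6.68, 6.19 and 5.99 (adjusted p = 0.0085, 0.0098 and 0.00606).

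Many genes by which epithelia such as those of kidney and gut take up solutes were female-higher. Of 25 tested genes of a list of epithelial solute transporters and uptake receptors, 12 were female-higher, 0 male-higher and 13 did not pass, with a median log2 fold change of 3.03 (3.29 with genes at their bound, -0.08 over all genes tested). The shares called over all genes tested were 1.18% female-higher and 0.808% male-higher. The list has 36 genes in the table, and 13 of the 25 tested reached 1 TPM in the female pools alone, as 284 of all 12001 genes did. Such genes had to differ to be tested, so that counts and medians over tested members, here and in the lists that follow, are a description and support nothing. They were 2 of 11 in gluconeogenesis, 8 of 24 in amino acid breakdown, 7 of 21 in biotransformation, 3 of 12 in lipid transport, 5 of 14 among transcription factors, 10 of 21 tubule markers and 3 of 12 hepatocyte markers. *SLC34A1*, the phosphate transporter of the proximal tubule, had 0.223 and 0.306 TPM in the male pools and 14.4 and 102 TPM in the female pools, a log2 fold change of 4.98 (SE 0.75, adjusted p = 0.0168). *SLC6A19*, which takes up neutral amino acids, had 1.07 and 0.337 TPM in the male pools and 20.04 and 164 TPM in the female pools, and *SLC3A1*, a subunit of the transporter of cystine and basic amino acids, had 3.39 and 3.77 TPM in the male pools and 21.1 and 127 TPM in the female pools. All of them were low in both male pools. *SLC23A1*, the vitamin C transporter, had 0.0936 and 0.308 TPM in the male pools and 28.3 and 64.7 TPM in the female pools, a log2 fold change of 5.20 (SE 0.44, adjusted p = 0.00132). *SLC5A1*, the sodium and glucose cotransporter, had 3.904 and 1.99 TPM in the male pools and 28.2 and 90.6 TPM in the female pools, a log2 fold change of 3.75 (SE 0.53, adjusted p = 0.014). *SLC13A3*, a carrier of dicarboxylic acids, had 6.76 and 5.23 TPM in the male pools and 30.4 and 147 TPM in the female pools. The pool gap was narrower in *SLC23A1* than in *SLC34A1* or *SLC6A19*. *SLC34A2*, the related phosphate transporter of other epithelia, did not pass and had 99.1 and 99.4 TPM in males and 70.8 and 46.9 TPM in females. *AMN*, which anchors the vitamin B12 receptor, was female-higher at 4.01 (adjusted p = 0.0315), and its partner *CUBN* had a log2 fold change of 2.99 that did not pass (adjusted p = 0.074).

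Enzymes of glucose production rose in part. Of 11 tested genes of gluconeogenesis and fructose metabolism, 4 were female-higher, 0 male-higher and 7 did not pass (median 1.66). The shares over all genes tested were 1.18% and 0.808%, and 2 of the 11 reached 1 TPM in the female pools alone. *G6PC* (ENSGALG00000030034, chromosome 27, 7903742 to 7906398), which releases free glucose as the last step of gluconeogenesis, had 2 reads in each male pool and 28.2 and 105 TPM in the female pools, 244-fold higher from summed reads (exact 95% interval 95.2 to 899). *PCK1*, an early and rate-limiting enzyme of the same pathway, had 1 and 0 reads in the male pools and 5.81 and 52.7 TPM in the female pools, 1113-fold higher (exact 95% interval 199 to 44011). Both were thus close to absent from the male pools. The intervals of *G6PC* and *PCK1* cover counting error only, not the gap between the female pools. A gene on the other strand overlaps *PCK1*, and their reads cannot be told apart. Z-linked *FBP2*, a fructose bisphosphatase, had 0.436 and 1.72 TPM in the male pools and 11.2 and 68.5 TPM in the female pools, a log2 fold change of 3.88 (SE 0.73, adjusted p = 0.0356). *FBP1*, which lies beside *FBP2*, had 42.4 and 61.6 TPM in the male pools and 106 and 881 TPM in the female pools and did not pass (log2 fold change 2.56, adjusted p = 0.167). Widely used enzymes of the same list did not pass, among them *LDHB* with 2484 and 3021 TPM in males and 3333 and 4092 TPM in females.

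Amino acid and related breakdown held the largest number of female-higher genes of any list, although the lists differ in size. Of 24 tested genes, 13 were female-higher, 1 was male-higher and 10 did not pass (median 3.76). The shares over all genes tested were 1.18% and 0.808%, and 8 of the 24 reached 1 TPM in the female pools alone. Successive steps of tyrosine breakdown were among them: *HGD* had 0.119 and 0.3903 TPM in the male pools and 22.7 and 177 TPM in the female pools, and *FAH* had 3.94 and 4.603 TPM in the male pools and 35.9 and 264 TPM in the female pools. Of the tryptophan pathway, *KMO*, *HAAO*, *ACMSD* and *ALDH8A1* were female-higher, with log2 fold changes of 3.88, 4.02, 4.11 and 3.92 (adjusted p = 0.037, 0.0326, 0.0183 and 0.0183). *KYNU* of the same pathway was at 16.2 and 19.97 TPM in males and 17.1 and 20.6 TPM in females and did not pass. *CTH*, which makes cysteine from cystathionine, had 45.1 and 65.4 TPM in the male pools and 265 and 1196 TPM in the female pools, so that it was expressed in the male pools too. *MAT1A*, the liver form of methionine adenosyltransferase, had 1.25 and 0.363 TPM in the male pools and 17.2 and 164 TPM in the female pools, a log2 fold change of 4.97 (SE 0.85, adjusted p = 0.0269). *AGXT*, which detoxifies glyoxylate, had 0.0846 and 0.348 TPM in the male pools and 20.8 and 187 TPM in the female pools, and a gene on the other strand, *MAB21L4*, overlaps it. The exception was Z-linked *GLDC*, a subunit of the glycine cleavage system, which was male-higher with 46.1 and 36.4 TPM in the male pools and 10.8 and 10.6 TPM in the female pools, a log2 fold change of -1.84 (SE 0.29, adjusted p = 0.0196).

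Of 21 tested biotransformation enzymes 10 were female-higher and 0 male-higher, and 11 did not pass (median 2.87, and 3.14 with bounds). Over all genes tested 1.18% were female-higher and 0.808% male-higher, and 7 of the 21 reached 1 TPM in the female pools alone. *CYP1A2* had 0.171 and 0.281 TPM in the male pools and 21.7 and 125 TPM in the female pools, *ADH1C* had 2.02 and 1.43 TPM in the male pools and 37. and 304 TPM in the female pools, and *DIO1*, which activates thyroid hormone, had 2.04 and 1.87 TPM in the male pools and 23.3 and 143 TPM in the female pools. *GSTA2* of the same list had 247 and 195 TPM in males and 213 and 195 TPM in females and did not pass (adjusted p = 0.885). Of 12 tested lipid transport genes 2 were female-higher, *APOA1* and *APOC3*, and 10 did not pass (median 1.39). Of these 12 genes, 3 reached 1 TPM in the female pools alone. *APOB*, the core protein of very low-density lipoprotein, had 0 reads in both male pools and 1.81 and 15.9 TPM in the female pools, and it did not pass (adjusted p = 0.118). The study chose a panel of 8 genes from its RNA-seq of these samples, so that their values here are not independent evidence. Its RT-qPCR used new pools of sorted PGCs, and it reported all 8 as high in E6.5 females. Of the 8, 1 gene (*UGT1A1*) reached 1 TPM in the female pools alone. In the libraries compared here, 7 of the 8 were female-higher. The other gene was *GATM*, which starts creatine synthesis, with 15.3 and 9.58 TPM in males and 58.9 and 448 TPM in females (adjusted p = 0.0518).

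Of 14 tested transcription factors of kidney and liver 1 was female-higher, 0 male-higher and 13 did not pass. Over all genes tested, 1.18% were female-higher and 0.808% male-higher. The median of the list was 1.12, against -0.08 over all genes tested. In 8 of the 14 both female pools were above both male pools, and in 2 both male pools were above (18.0% and 28.2% of all genes tested). These counts are a description, since 5 of the 14 reached 1 TPM in the female pools alone. The gene that passed was *NR1H4*, the bile acid receptor, with 0 and 0.421 TPM in the male pools and 6.96 and 14.3 TPM in the female pools, a log2 fold change of 3.21 (SE 0.45, adjusted p = 0.014). *NR1H4* was itself among the genes that reached 1 TPM in the female pools alone, so that its p-value is a description. *HNF4A*, a regulator of liver and proximal tubule genes, had 0 reads in both male pools and 2.56 and 12.9 TPM in the female pools, at least 33.3-fold higher than 3 reads per male library would be, with an adjusted p of 0.0604. Its relative *HNF4G* likewise had 0 reads in the male pools and 2.15 and 11.1 TPM in the female pools (adjusted p = 0.0788). In both genes the second female pool was the higher and the female pools lay apart from the males, short of the threshold.

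A smaller set of female-higher genes did not rise further in the second female pool to that degree. In 14 of the 142 genes the second female pool was less than 2-fold above the first, and 12 of the 14 had 30 reads or more. The genes named from this set were chosen after their values had been seen. *NSDHL*, an enzyme of cholesterol synthesis, had 21.7 and 16.2 TPM in the male pools and 58.9 and 54.5 TPM in the female pools, a log2 fold change of 1.55 (SE 0.28, adjusted p = 0.0326). *ALDH1A2*, which makes retinoic acid, had 3.003 and 4.86 TPM in the male pools and 14.7 and 18.1 TPM in the female pools, a log2 fold change of 1.84 (SE 0.36, adjusted p = 0.0391). It rose in both female pools by similar amounts, although neither pool alone passed (adjusted p = 0.215 and 0.0522). *FGGY*, a carbohydrate kinase, had 30.8 and 33.3 TPM in the male pools and 75.98 and 109.9 TPM in the female pools, and *CBR4*, an enzyme of mitochondrial fatty acid synthesis, had 40.9 and 44.3 TPM in the male pools and 93.04 and 146 TPM in the female pools. *NUB1* and *STYK1* had log2 fold changes of 1.42 and 2.02 (adjusted p = 0.0448 and 0.034), and *STOM* had 10.3 and 18.1 TPM in the male pools and 51.9 and 82.2 TPM in the female pools. All of these genes were expressed in males as well, with changes of about 4-fold or less in *NSDHL*, *ALDH1A2*, *FGGY*, *CBR4*, *NUB1* and *STYK1*. The rest of the set was at or near 0 in males, among them *KCNK16*, a potassium channel gene with 0 reads in the male pools and 6.69 and 10.7 TPM in the female pools.

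The most strongly male-higher gene was *FST* (ENSGALG00000014908, chromosome Z, 16072541 to 16079179). It encodes follistatin, which binds and blocks activins. It had 51.7 and 68.9 TPM in the male pools and 2.36 and 3.66 TPM in the female pools, a log2 fold change of -3.94 (SE 0.33, adjusted p = 0.00132). The male pools were close to each other and so were the female pools, and the change passed in each female pool on its own (adjusted p = 0.00318 and 0.000825). The next lowest Z-linked fold change was -2.19. *FST* was also the gene that was called, alone among the non-W genes, without a filter on low values and with limma-voom on recovered reads. The other 3 genes past the fold threshold in males were unnamed and had fewer than 30 reads over the 4 libraries. Of 25 tested genes of TGF-beta, activin and BMP signalling, *FST* was the 1 that passed, and 24 did not (median -0.37). Over all genes tested, 1.18% were female-higher and 0.808% male-higher, so that the 24 say little about the list.

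Outside the Z chromosome 29 genes were male-higher, of which 11 had fewer than 30 reads in all 4 libraries. In the 18 with more reads the median log2 fold change was -1.85, and the medians of the single female pools against the male mean were -1.93 and -1.86. *NTS*, which encodes the peptide neurotensin, had 11.4 and 11.96 TPM in the male pools and 0.959 and 1.79 TPM in the female pools, a log2 fold change of -2.44 (SE 0.37, adjusted p = 0.0183). *NDNF*, which encodes a secreted protein, had 12.2 and 16.3 TPM in the male pools and 2.02 and 1.703 TPM in the female pools, and *IL12A*, a cytokine subunit, had 23.5 and 15.6 TPM in the male pools and 3.53 and 3.94 TPM in the female pools. No overlap between the sexes was required for naming these genes, and the gap between the sexes was several-fold. *GJA1*, the gap junction protein connexin 43, had 17.8 and 12.8 TPM in the male pools and 3.28 and 3.59 TPM in the female pools, a log2 fold change of -1.86 (SE 0.35, adjusted p = 0.0354). *VGLL2*, a transcriptional cofactor, and *MARCHF4*, a ubiquitin ligase, had log2 fold changes of -2.22 and -2.14 (adjusted p = 0.0243 and 0.0196), and *MARCHF4* overlaps an unnamed gene on the other strand. *KCTD21* had 5.46 and 2.73 TPM in the male pools and 1 and 0 reads in the female pools, 46.8-fold higher in males from summed reads (exact 95% interval 7.98 to 1888). That interval covers counting error only, not the spread between pools.

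Further male-higher genes outside Z were singled out after their values had been seen, for their level. *EOMES* (ENSGALG00000027247, chromosome 2, 38541856 to 38546582), a T-box transcription factor of early development, had 75.6 and 56.3 TPM in the male pools and 20.1 and 15.9 TPM in the female pools, a log2 fold change of -1.81 (SE 0.29, adjusted p = 0.0202). It was well expressed in every pool, and each male pool was above each female pool. *HTRA1*, a secreted protease, had 248 and 355 TPM in the male pools and 107 and 100.4 TPM in the female pools, a log2 fold change of -1.51 (SE 0.25, adjusted p = 0.0216). *FIBIN*, a secreted protein of limb development in fish, had 218 and 221 TPM in the male pools and 85.2 and 77.03 TPM in the female pools, a log2 fold change of -1.43 (SE 0.22, adjusted p = 0.0183). For these 3 genes, as for *NDNF* and *IL12A*, the first female pool alone did not pass (adjusted p = 0.063 to 0.0928), while the second passed in all of them, with adjusted p-values from 0.0145 in *EOMES* to 0.0356 in *IL12A*.

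Z-linked genes were lower in females nearly throughout. The median log2 fold change was -0.87 over the 592 Z-linked genes (10th to 90th percentile -1.40 to -0.08) and -0.06 over the 11409 others. Where the 4 libraries averaged at least 5 TPM, the median ratio of female to male TPM was 0.532 on Z (435 genes) and 0.979 elsewhere (7822 genes). Both male pools were above both female pools in 463 Z-linked genes (78.2%) and in 2926 others (25.6%). The test called 68 Z-linked genes male-higher, or 11.5%, against 0.254% of the others. The first female pool was below both male pools in 493 of the 592 genes and the second in 503. The median difference from the male mean was -0.75 in the first pool and -0.94 in the second, so that the pools were much alike here. Without the second female pool the test called 8 Z-linked genes, without the first 54, and without either male pool 0 (228 and 202 at an unadjusted p under 0.05).

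**Figure D3:**
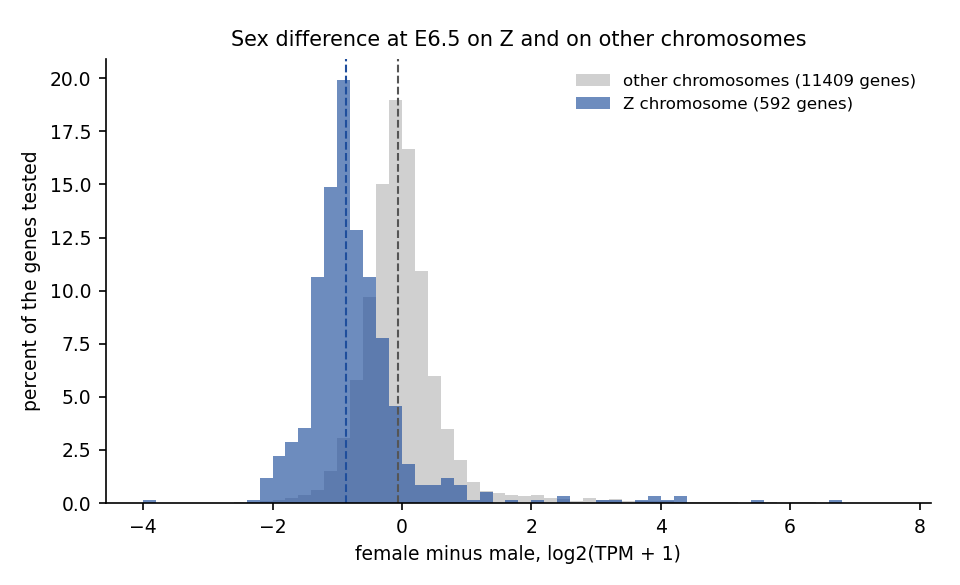
Percent of the genes tested by log2 fold change, female minus male in log2(TPM + 1), for the 592 Z-linked genes (blue) and the 11409 non-W genes of other chromosomes (grey), in bins of 0.2; dashed lines mark the medians, -0.87 and -0.06. The Z-linked genes form a shifted peak with a thin tail on the right.

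The male-higher Z-linked genes included abundant genes used by every cell. *RPS6*, a ribosomal protein, had 2697 and 2461 TPM in the male pools and 1102 and 1126 TPM in the female pools, a log2 fold change of -1.21 (SE 0.17, adjusted p = 0.0144). *RPL17* had 1224 and 963 TPM in the male pools and 422 and 432 TPM in the female pools, and *COX7C*, a subunit of cytochrome c oxidase, had 4309 and 3514 TPM in the male pools and 1727 and 2053 TPM in the female pools. These were chosen after their values had been seen, and their log2 fold changes ran from -1.34 in *RPL17* to -1.05 in *COX7C*. Others were further apart. *CFC1*, which encodes a co-receptor of Nodal, had 89.7 and 90.4 TPM in the male pools and 24.7 and 25.7 TPM in the female pools, a log2 fold change of -1.80 (SE 0.25, adjusted p = 0.0133). *CCDC125* had 48.97 and 70.6 TPM in the male pools and 15.3 and 12.4 TPM in the female pools, and *PLCXD3* had 71.2 and 88.3 TPM in the male pools and 20.8 and 21.3 TPM in the female pools. *RAX*, an eye-field homeobox gene, had 13.2 and 12.9 TPM in the male pools and 1.71 and 3.43 TPM in the female pools, a log2 fold change of -2.02 (SE 0.38, adjusted p = 0.0357), with a gene on the other strand overlapping it. *TMOD1*, which caps actin filaments, and *FAM189A2* had log2 fold changes of -1.85 and -1.95 (adjusted p = 0.0201 and 0.0311). The microRNA gene *gga-mir-7437* had a log2 fold change of -1.94 (adjusted p = 0.0183), with 74 and 55 reads in the male pools and 16 and 18 in the female pools. Reads that fit a W-linked copy equally well are not in these values, since uniquely mapped reads were counted.

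Against this background 6 Z-linked genes were female-higher (1.01% of the Z-linked genes tested, against 1.19% of the others). Among them were *FBP2* and *DAB2*, and 3 had no gene name. *DAB2*, an adaptor of receptor uptake in the proximal tubule, had 0.565 and 0.214 TPM in the male pools and 10.3 and 70.8 TPM in the female pools, a log2 fold change of 4.37 (SE 0.74, adjusted p = 0.025). *DAB2* reached 1 TPM in the female pools alone, so that its p-value and its place among the 6 are a description. Its order of pools was that of the other transport genes. Elsewhere, female-higher genes were found on nearly every chromosome, with 20 of 1595 tested on chromosome 1, 17 of 1013 on chromosome 3 and 10 of 452 on chromosome 8.

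Markers of other cell types were examined next to these results. The gate was SSEA-1, and the sorted cells came from dissociated gonads. The study stained sorted cells of each stage and sex for the chicken vasa homologue and found nearly all of them positive. Of 21 tested markers of the nephron tubule 12 were female-higher and 9 did not pass (median 3.54), and their summed level was 106 and 111 TPM in the male pools, 551 TPM in the first female pool and 3743 TPM in the second. The list shares members with those of transporters and gluconeogenesis. Of 12 tested hepatocyte markers 3 were female-higher (*TTR*, *APOA1* and *FETUB*) and 9 did not pass (median 2.31), with sums of 79.4 and 78.1 TPM in males and 540.3 and 4093 TPM in females. Over all genes tested 1.18% were female-higher and 0.808% male-higher. In the female pools alone, 10 of the 21 tubule and 3 of the 12 hepatocyte markers reached 1 TPM, so that these counts are a description. *APOA1* and *TTR* made up most of the female sums, and without them the list came to 65.7 and 69.1 TPM in males and 98.8 and 410.5 TPM in females. *ALB*, which encodes albumin and defines hepatocytes, was close to 0 in all pools, with 1.26 and 2.63 TPM in the male pools and 0.224 and 0.299 TPM in the female pools. *LRP2*, the scavenger receptor of the proximal tubule, had 0.145 and 0.517 TPM in the male pools and 0.623 and 3.36 TPM in the female pools and was too low to be tested. *DPEP1* and *SLC2A2*, further tubule genes, had 0 reads in the male pools and 6.13 and 4.97 TPM in the second female pool. The part of such markers in the female-higher genes was not tested.

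**Figure D4:**
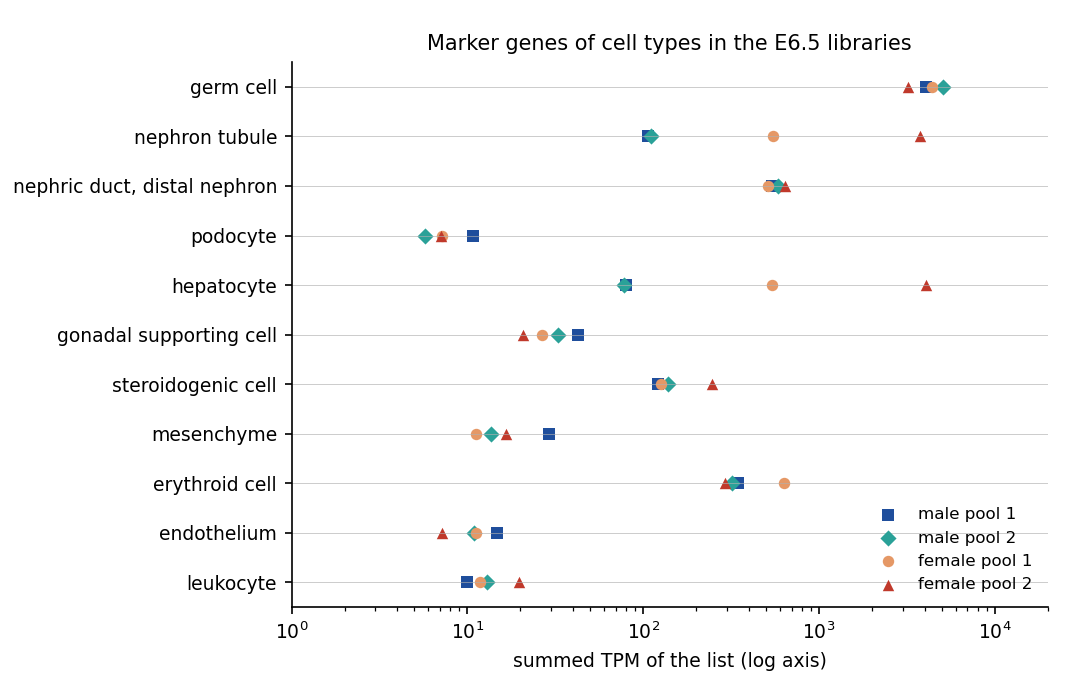
Summed TPM (log axis) of the marker genes of each cell type in the 4 E6.5 pools, over all members in the table. The nephron tubule and hepatocyte lists are higher in both female pools than in the male pools, and highest in the second female pool, while the germ cell sums lie between 3209 and 5057 TPM in every pool.

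Other lists were less uniform. Of 9 tested markers of the nephric duct and distal nephron 0 passed (median 0.04). Against the male mean their median was -0.04 in the first female pool, with 1 of 9 at least 2-fold above it, and 1.12 in the second, with 5 of 9. Their sum was 542 and 585 TPM in males and 514 and 639 TPM in females, and *EPCAM*, an epithelial adhesion molecule, made up most of their sum, with 466 and 568 TPM in males and 499 and 562 TPM in females. *SLC12A1*, the salt transporter of the thick ascending limb, had 52.7 and 1.13 TPM in the male pools and 0.3196 and 41.1 TPM in the female pools, and *KCNJ1*, the potassium channel of the same segment, had 3.36 and 0.1104 TPM in the male pools and 0.113 and 2.53 TPM in the female pools. *TF*, which encodes transferrin, had 7.87 and 0.404 TPM in the male pools and 0.331 and 10.1 TPM in the female pools. In these 3 genes the first male and the second female pool were the high ones, so that the sexes overlapped. Steroidogenic markers summed to 121 and 138 TPM in males and to 127 and 247 TPM in females, highest in the second female pool, and 0 of 3 tested passed. Of 6 tested supporting cell markers 0 passed (median -0.44), and their sum was 42.8 and 32.7 TPM in males and 26.5 and 20.8 TPM in females. The sums of mesenchyme, endothelium, leukocyte and podocyte markers were between 5.76 and 29.1 TPM in every pool. Erythroid markers summed to 348 and 321 TPM in males and to 631 and 294 TPM in females, and of 12 tested genes of dissociation stress 0 passed (median -0.11). With 1.18% female-higher and 0.808% male-higher over all genes tested, a count of 0 in lists of these sizes says little.

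Genes of gonadal sex differentiation were mostly low. Of 10 tested genes, *HPGDS* was female-higher, *FST* was male-higher and 8 did not pass (median -0.44). The shares over all genes tested were 1.18% and 0.808%. *AMH*, the hormone of Sertoli cells that regresses the Müllerian ducts, had 5.602 and 2.37 TPM in males and 1 and 0 reads in the female pools. From summed reads it was 159-fold higher in males (exact 95% interval 28.1 to 6321), with an adjusted p of 0.0518 just above the threshold. The interval covers counting error only, not the spread between pools. Z-linked *DMRT1*, the dosage-sensitive testis gene of birds, had 20.7 and 13.2 TPM in the male pools and 9.02 and 7.62 TPM in the female pools, a log2 fold change of -0.92 close to the Z-linked median (adjusted p = 0.257). *SOX9*, the Sertoli cell factor, had 3.51 and 1.76 TPM in the male pools and 1.72 and 0.845 TPM in the female pools (adjusted p = 0.563). All 3 were thus highest in the first male pool. *FOXL2* and *CYP19A1*, which mark the female gonad, did not reach the filter. *FOXL2* had at most 0.349 TPM in a pool. *CYP19A1*, the aromatase that makes oestrogen, had 0 reads in both male pools and 0.981 and 1.63 TPM in the female pools. *PTGDS*, a prostaglandin D synthase of the testis, had 2.62 and 1.89 TPM in the male pools and 4.13 and 125 TPM in the female pools and was high in the second female pool alone (adjusted p = 0.286).

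Retinoic acid is known as the signal that starts meiosis in the female gonad. Of 14 tested genes of its pathway 1 was female-higher (*ALDH1A2*) and 13 did not pass (median 0.17). Among the receptors, *RARB* had 22.3 and 29.5 TPM in the male pools and 23.3 and 29.8 TPM in the female pools (log2 fold change 0.03, adjusted p = 0.976), and *RARA* and *RARG* were below the filter, with at most 0.236 and 0.0964 TPM. *STRA8*, the target that precedes meiotic entry, had 34.5 and 52.9 TPM in the male pools and 44.8 and 40.8 TPM in the female pools, a log2 fold change of 0.00 (adjusted p = 0.999). The sexes overlapped in both *RARB* and *STRA8*. Z-linked *ALDH1A1*, another enzyme of retinoic acid synthesis, had 17.3 and 0.737 TPM in the male pools and 28.6 and 212 TPM in the female pools, with a wide gap within each sex (adjusted p = 0.151). *CYP26A1*, which degrades retinoic acid, had 28.8 and 33.8 TPM in males and 17.4 and 15.5 TPM in females (adjusted p = 0.189). Of 8 tested meiosis genes 0 passed (median -0.12). Over all genes tested 1.18% were female-higher and 0.808% male-higher, so that counts of called genes in lists of these sizes say little.

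The same sex contrast was read at the earlier stages, which share no libraries with E6.5. In the 142 female-higher genes, the median log2 fold change was -0.40 at E4.5 and -0.06 at E2.5. In the 97 male-higher genes it was -0.91 and -0.85, against -1.64 at E6.5. As 68 of the 97 lay on Z, these medians say little about the 29 elsewhere, for which no separate median was taken. The genes were chosen by their E6.5 values, so that the E6.5 medians are a description. The 118 female-higher genes of large fold made up between 0.0314% and 0.132% of TPM in the earlier libraries, the highest share being that of the first male pool of E4.5. *FST* was at -3.94 at E6.5, -0.18 at E4.5 and -0.86 at E2.5. *EOMES* was at 0.12 at E4.5, where no male excess was seen, while *MARCHF4* and *CCDC125* were at -2.22 and -2.73.

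Whether the sex difference itself changed was tested as an interaction term over all 12 libraries. Of 14122 non-W genes, 0 had an adjusted p under 0.05 for E6.5 against E4.5 (smallest adjusted p = 0.0669 from limma, 502 genes at an unadjusted p under 0.05), and 0 for E6.5 against E2.5 (smallest 0.190, 728 unadjusted). When pools of the same number within a stage were taken as a block, 16 and 0 genes passed. Of the 142 female-higher genes, 134 had an unadjusted p under 0.05 for the difference from E4.5 and 136 for that from E2.5, and of the 97 male-higher genes 9 and 14 did. These members were called on the E6.5 libraries that the interaction also uses, so that the shares are a description. The smallest adjusted p of 0.0669 was shared by *MIOX*, *APOC3*, *SLC2A11L1* and *RGN* among others, and that of *FST* was 0.138.

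**Figure D5:**
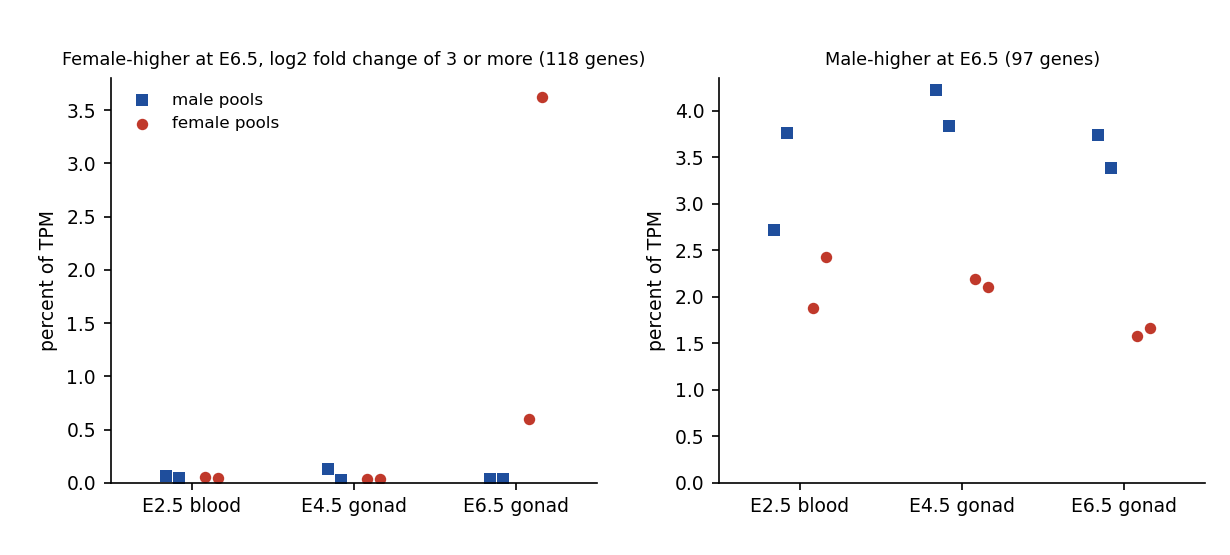
Percent of all TPM taken up in each of the 12 libraries by the 118 genes that were female-higher at E6.5 with a log2 fold change of 3 or more (left) and by the 97 male-higher genes (right); squares are male and circles female pools. On the left the female pools of E6.5 stand at 0.601% and 3.63% and every other library at 0.132% or less, whereas on the right the male pools are above the female pools at every stage. Of the 97 genes on the right 68 are Z-linked, and the sum does not show the others apart.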

How the data were processed

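RNA-seq of sorted chicken PGCs gave 12 libraries, of which the 4 from E6.5 gonads were compared. The authors trimmed reads (FastQC 0.11.9, Trimmomatic 0.39, Trim Galore 0.6.6 and cutadapt 3.1 are listed in the submitters' processing notes), mapped them to GRCg6a with STAR 2.7.3a, counted them per gene with featureCounts 2.0.1, and deposited one table of TPM with each gene's length in bases. How counts were turned into TPM is not given in the sources used here. TPM is relative to the sum of each library, so that genes that rise strongly lower the others slightly. TPM divided by what 1 read is worth gave whole reads within 0.02 of a read for 100% of the low values checked. The study's own test models counts. Here the values are TPM, and they were tested with limma 3.58.1 (trend, R 4.3.3) on log2(TPM + 1), with sex as the only term and p-values adjusted over all 12029 genes with 1 TPM in 2 libraries, W-linked genes included. Tables and figures were made with Python 3.11.15, pandas 2.3.3 and matplotlib 3.10.9.

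Genes were named when they were among the 15 largest changes in each direction with a gene name, no overlap and 30 reads or more, when they were listed members that passed or that define their list, or when the study names them. Some genes that these rules name are not reported here. Other named genes are said to have been chosen after their values were seen. Members, lists and rules were chosen with earlier results of these data known. On simulated counts with 200 of 12029 genes changed by 4 on the log2 scale, the E6.5 test recovered 164 at a dispersion of 0.02 and 141 at 0.1 by fold and adjusted p, with 0 and 1 false calls. By adjusted p alone it recovered 199 and 197, with 27 and 30 false calls. These figures hold for those dispersions only. In the 142 female-higher genes the second female pool was 4.89 times the first at the median. Recovery and false calls with female pools that far apart were not tested. Alternatives were another pseudocount (0.1), no filter, median-of-ratios scaling, a filter at a mean of 5 TPM, a replicate block, limma-voom, all 12 libraries in one fit and each library left out.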

Additional observations from a re-analysis of the deposited data

How the results depend on the processing

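Of 94 named genes that passed the test, 0 changed direction under any alternative run. Most alternatives could not have changed it. The sexes did not overlap in these genes, which fixes the direction under another pseudocount or with 1 library left out. Other filters, the blocks and the fit of all 12 libraries leave the fold change as it was. Only median-of-ratios scaling and limma-voom could have reversed a gene. All of them lost significance without either male pool, and 93 lost it with no filter and with limma-voom. With median-of-ratios scaling 34 kept it, with all 12 libraries in one fit 53, without the first female pool 83 and without the second 54. The causes were not tested. Female-higher calls (118 with the fold threshold, 142 without) became 41 and 43 with median-of-ratios scaling, and 0 and 0 with no filter and with limma-voom. Male-higher calls with the fold threshold (4) became 8 with a pseudocount of 0.1, 2 at a mean of 5 TPM, and 1 with no filter, limma-voom or all 12 libraries. Male-higher calls without it (97) became 17 with median-of-ratios scaling, 9 with all 12 libraries, and 1 with no filter and with limma-voom. Z-linked male-higher calls (68) became 10, 8, 1 and 1 under the same 4 alternatives. Leaving out 1 library gave 0 to 262 female-higher calls with the fold threshold and 0 to 442 without, 0 to 6 and 0 to 97 male-higher calls, and 0 to 54 Z-linked ones.

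Same-numbered pools share only a number, and the correlation of their deviations from the group means was -0.129. With the replicate number as a block, 226 genes were female-higher, 77 male-higher and 43 of the Z-linked genes male-higher, and 16 genes passed the interaction with E4.5. With the numbers crossed, an alternative chosen after seeing the data, these calls were 345, 193 and 119.

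Among genes that did not pass, *RARB* (log2 fold change 0.03) was at -0.0067 with limma-voom, -0.16 without the first male pool and -0.14 without the second female pool, and leaving out 1 library gave -0.16 to 0.23. *STRA8* was at 3.538e-05 with a pseudocount of 0.1, 0.097 with median-of-ratios scaling, 0.30 without the second male pool and 0.066 without the second female pool, and leaving out 1 library gave -0.30 to 0.30. Genes of a few reads are limited by depth, and 11 of the 29 male-higher genes outside Z had fewer than 30 reads in all.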
